A study of Rattus norvegicus with 24 samples.

Results

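Lungs of rats that breathed Iraqi sand were compared with lungs of rats that breathed silica at the same mass concentration, both without cigarette smoke. The comparison took 8 of the 24 arrays of the series, 4 rats with sand (animals 301, 302, 304 and 305) and 4 with silica (501, 502, 503 and 504), chosen by the exposure codes in the sample titles. Every gene with a probe set that carried exactly 1 symbol was used, read from its brightest probe set over the 24 arrays, which gave 14217 genes. All rats were male adult Sprague-Dawley, an outbred strain, labelled 17 weeks of age. They were held in a nose-only tube in clean air 5 days a week, 3 hours each time, during 5 weeks per the protocol and 6 weeks per the series text. The whole-body particle exposure was set at 1 mg per m3, 18 hours daily, 7 days a week, and lasted 2 weeks. The labels call the second particle silica and the series text describes it as a made silica sand, and neither names its crystal form. The other 4 groups of the series, of 4 rats each, had neither particle nor smoke (filtered air), smoke alone, smoke with sand and smoke with silica, with smoke at 0.48 mg wet particulate matter (WTPM) per litre.

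Inhaled mineral particles that reach the alveoli are taken up by alveolar macrophages. Crystalline silica can break the lysosomes of these cells and switch on the inflammasome, a complex that releases interleukin-1, and the chemokines that follow draw neutrophils into the lung. Desert sand is a mixture of minerals, and how it compares with silica at an equal mass is the question here.

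The tissue carried the markers of lung in each of the 8 rats. The surfactant protein Sftpc lay between 14.87 and 14.95 on the log2 scale of the arrays, the alveolar type 1 receptor Ager between 13.14 and 13.47, and the club cell secretoglobin Scgb1a1 between 14.89 and 14.95. Rat 302 of the sand group stood apart, with a correlation of 0.944 on average to the remaining arrays, against 0.980 to 0.990 for each of the other 23, and 235 genes at least 2-fold above and 1211 at least 2-fold below the mean of its group mates. The atrial myosin light chain Myl7 was at 11.51 in it and between 4.56 and 8.58 in the other 7 rats, and the airway protein Bpifa1 at 12.63 and between 6.76 and 8.49. Counts of calls between sand and silica are therefore given with this rat and without it, as are the values of the leading genes. RNA integrity numbers were 8.1, 8.8, 9.3 and 9.2 in sand rats 301, 302, 304 and 305, and 9.1, 9.1 and 9.2 in silica rats 501, 502 and 504, with none known for rat 503.

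Few genes, each read from 1 probe set, passed the threshold between sand and silica. With equal weight on each array most of those that passed were lower with sand. At an adjusted p under 0.05 in limma, 38 genes were lower and 1 was higher with sand, which is 0.274% of the 14217 tested, or 0.267% lower and 0.00703% higher, and 1698 genes had an unadjusted p under 0.05. Leaving out rat 302 gave 34 lower (0.239%) and 2 higher (0.0141%), 0.253% in all, with 1000 at an unadjusted p under 0.05, and 31 genes passed both ways. After quantile normalization over again the split was 41 lower and 6 higher, and with array weights 57 lower and 25 higher, so the lower share depends on the setting. Over all genes the balance lay the other way, with a log2 difference below 0 in 37.0% of genes with rat 302 and in 44.2% without it. The difference of the 38 genes had a median of -0.79, a level 1.73-fold higher with silica, and ran from -0.30 to -2.06, while the median over all genes was 0.05. The sand and silica rats did not overlap in 37 of the 38, against 1.21% of all genes that were lower with sand without overlap, and the same values called these genes, so this count describes them and is no further test. In whole lobes, fewer cells of a type and less RNA per cell cannot be told apart. Of the 39 calls, 22 were kept when each of the 8 rats was left out in turn, and a named call that was not kept is given with the rats it rests on. The count was 25 without rat 503, the only rat to move it by more than 1.5 times. Of the 38 lower genes, rat 302 was the lowest sand rat in 17 and rat 305 in 17. With rat 302 set aside, rat 305 was the lowest of the other 3 in 31. Without both rats, a setting chosen after seeing the data, 17 genes passed. On the 8 arrays alone, with a spread estimated from them, 6 genes passed, and on the 7 without rat 302, a setting chosen after seeing the data, 32.

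**Figure D1:**
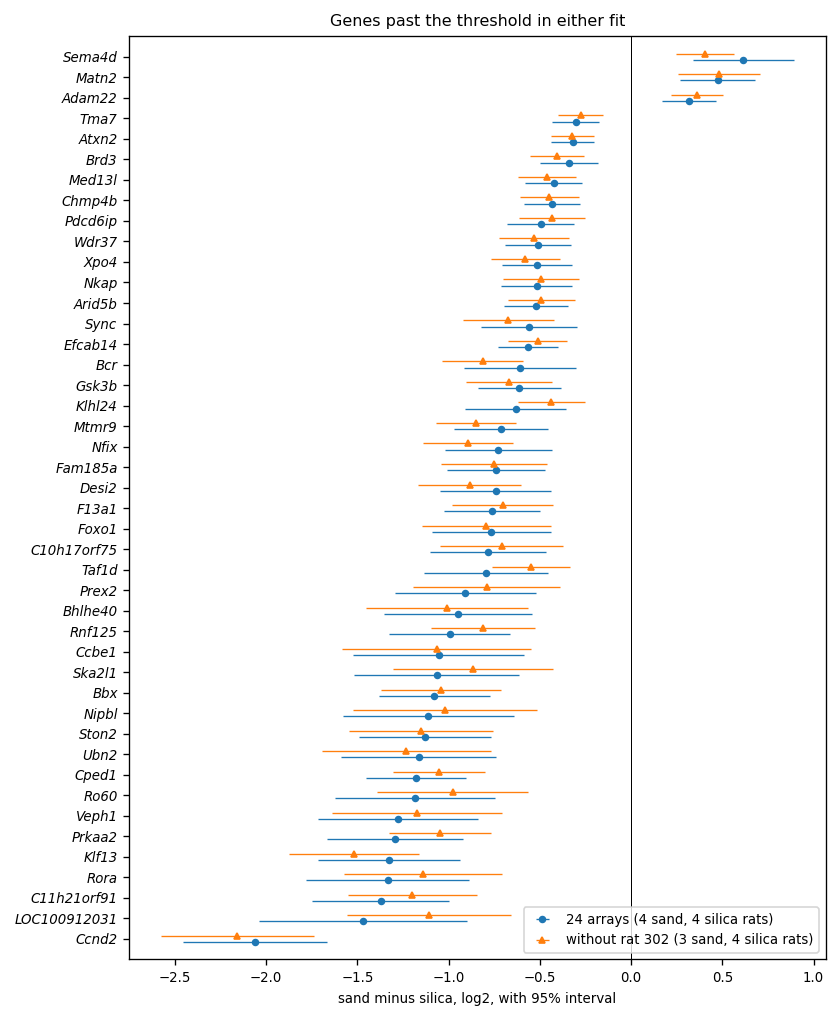
Difference between sand and silica without smoke, as log2 sand minus silica with its 95% interval, for each gene past the threshold with all arrays (circles) or without rat 302 (triangles). The genes run from Ccnd2 at -2.06 to Sema4d at 0.62, only Sema4d, Matn2 and Adam22 lie to the right of 0, and no gene changes side without rat 302.

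The largest difference was that of Ccnd2, cyclin D2, a D-type cyclin that drives cells from G1 into S phase with its partner kinases. Its log2 level was 9.05, 9.15, 8.88 and 8.34 in the sand rats 301, 302, 304 and 305 and 11.01, 10.65, 11.00 and 11.00 in the silica rats 501 to 504. Every silica rat lay above every sand rat, and rat 305 was the lowest. The difference was -2.06 ± 0.19 (SE, n = 4 and 4), a 4.17-fold higher level with silica (limma adjusted p = 6.13e-06), or -2.16 without rat 302 (adjusted p = 1.25e-05). Ccnd2 was at 9.68 ± 0.31 (SD, n = 4) in filtered air, between the particles, and silica rats lay above air rats by 1.23 ± 0.19 (adjusted p = 0.00670). The value of sand against air was -0.83 ± 0.19 (adjusted p = 0.105). Of other cell cycle genes, 0 of the 34 measured genes of the cell cycle and proliferation list passed in limma with rat 302 or without it. At an unadjusted p under 0.05 lay 0 of them, where 11.9% of all genes did, and their median difference was -0.02, or -0.06 without rat 302.

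Other signalling genes among the 38 were Prkaa2, the alpha 2 catalytic subunit of the energy sensor AMP-activated kinase, and Gsk3b, a kinase of glycogen and Wnt signalling. Prkaa2 was at 8.25, 6.97, 8.08 and 7.54 in the sand rats and 9.05, 8.96, 9.11 and 8.89 in the silica rats. The groups did not overlap, and rat 302 was the lowest. The difference was -1.29 ± 0.18 (adjusted p = 0.00103), or -1.05 without rat 302 (adjusted p = 4.43e-04). Gsk3b was lower by 0.61 on the log2 scale, or by 0.67 without rat 302, a call lost on removing rat 503 (adjusted p = 0.0561). Prex2, an activator of the GTPase Rac, was at -0.91 ± 0.19 (adjusted p = 0.0319), a call kept only without rat 301 (adjusted p up to 0.151). Bcr, also a regulator of such GTPases, passed only without rat 302 (-0.81, adjusted p = 5.41e-04, against -0.61 and 0.101 with it), and in no fit that left out another of the 8 rats (adjusted p up to 0.275). Gsk3b, Prex2 and Bcr were chosen after their values were seen, as were Efcab14, Rnf125, Foxo1, Mtmr9, Med13l, Pdcd6ip, C10h17orf75 and Chmp4b below.

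The others are described in the order of their known roles, a sorting made after their values were seen and not set against all genes, so the number of genes in a role is no result. The first are genes of transcription and chromatin. Klf13, a zinc finger factor of the Krüppel-like family, was at 7.14, 7.74, 6.96 and 6.80 in the sand rats and 8.35, 8.44, 8.41 and 8.75 in the silica rats. Here rat 302 was the nearest to the silica rats, and the difference went from -1.33 ± 0.19 (adjusted p = 0.00103) to -1.52 without it (adjusted p = 1.53e-04). Nfix, a nuclear factor I protein, likewise went from -0.73 (adjusted p = 0.0204) to -0.90 (adjusted p = 5.54e-04). The Nfix call was lost on removing any of rats 304, 305, 502, 503 and 504 (adjusted p up to 0.0957). Bbx, an HMG-box protein, was lower by 1.08 on the log2 scale (adjusted p = 9.67e-04), or by 1.04 without rat 302. Ubn2, of the ubinuclein family of histone chaperone partners, was lower by 1.17 (adjusted p = 0.00854), or by 1.23 without that rat. Med13l, a subunit of the Mediator kinase module, was lower by 0.43 (adjusted p = 0.00854), a call lost on removing rat 504 (adjusted p = 0.0518). The loader of cohesin Nipbl was at -1.11 ± 0.22 (adjusted p = 0.0306), but was kept only when rat 301 or 304 was removed (adjusted p up to 0.125 otherwise). Foxo1, a forkhead factor under insulin signalling, was at -0.77 ± 0.16 (adjusted p = 0.0318), and its call was kept only without rat 503 (adjusted p up to 0.141).

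Of the 22 measured genes of the circadian clock list 2 passed, where 0.274% of all genes did, and 3 lay at an unadjusted p under 0.05 (13.6%, against 11.9% of all genes). A list of this size with 2 calls is a description and was not tested. They were the nuclear receptor Rora, an activator of clock transcription, and Bhlhe40, a repressor of it. Rora was at 6.41, 5.40, 6.28 and 5.82 in the sand rats and 7.20, 7.28, 7.32 and 7.45 in the silica rats. Bhlhe40 was at 8.03, 8.23, 8.48 and 7.45 in the sand rats and 9.31, 8.94, 9.02 and 8.70 in the silica rats. Neither gene's groups overlapped, and in both the silica rats were the higher. Rora was lower by 1.33 ± 0.21 (adjusted p = 0.00501), or by 1.14 without rat 302 (adjusted p = 0.0128), and Bhlhe40 by 0.95 ± 0.20 (adjusted p = 0.0335), or by 1.01 (adjusted p = 0.0470). The Bhlhe40 call was lost on removing any of rats 301, 305, 501, 502 and 503 (adjusted p up to 0.138). Against filtered air, at 7.26 ± 0.08 (SD, n = 4), Bhlhe40 rose with silica by 1.73 ± 0.20 (adjusted p = 2.15e-04) and stood at 0.78 ± 0.20 with sand (adjusted p = 0.162). The other 20 clock genes did not pass, with the repressors Nr1d1 at 0.32 ± 0.22 and Per2 at -0.24 ± 0.22 (adjusted p = 0.489 and 0.587), and the median of the list was 0.02, or -0.04 without rat 302. Time of death was not in the labels.

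**Figure D2:**
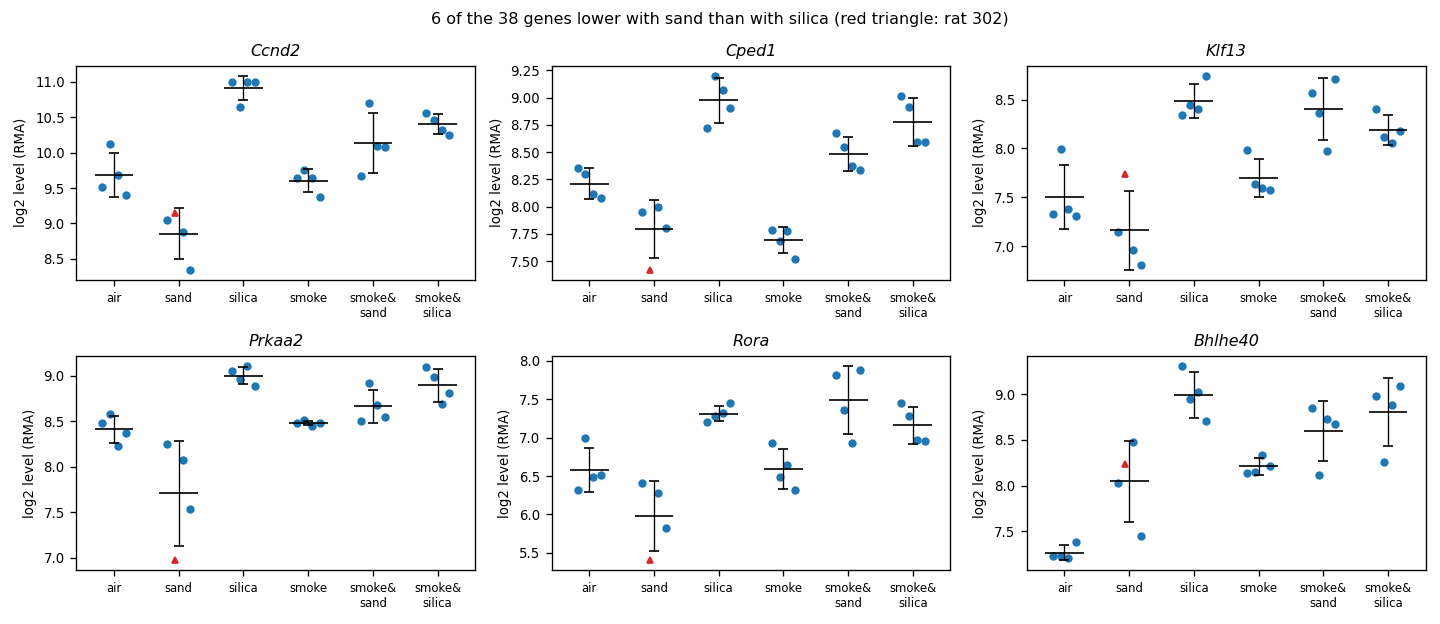
Log2 level of 6 genes lower with sand than with silica, in each of the 24 rats by group; horizontal lines are group means, bars are SD over 4 rats, and the red triangle is rat 302. In each gene the 4 sand rats lie below the 4 silica rats, and with smoke the 2 particle groups overlap in each gene.

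Next are proteins of membrane traffic. Ston2, an adaptor of endocytosis, was at 4.77, 4.88, 4.92 and 4.66 in the sand rats and 5.64, 6.04, 6.11 and 5.96 in the silica rats, a low level on these arrays. The groups were apart, by -1.13 ± 0.17 (adjusted p = 0.00319), or by -1.15 without rat 302. Smaller differences were those of Pdcd6ip, a partner of the ESCRT machinery of membrane budding, at -0.49, or -0.43 without rat 302, and Mtmr9, of the myotubularin phosphatase family, at -0.71, or -0.85 without rat 302. Of genes of RNA binding and protein turnover, Ro60, which binds small Y RNAs, was lower by 1.18 (adjusted p = 0.00854), or by 0.98 without rat 302. The ubiquitin ligase Rnf125 was lower by 0.99 (adjusted p = 0.00501), or by 0.81.

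Secreted and cell surface proteins follow. F13a1, the A subunit of clotting factor XIII, a cross-linker of fibrin made by macrophages among other cells, was at 6.33, 5.98, 6.51 and 5.81 in the sand rats and 6.88, 6.79, 6.98 and 7.03 in the silica rats. The sand rats were all lower, by 0.76 ± 0.13 (adjusted p = 0.00562), or by 0.70 without rat 302 (adjusted p = 0.0167). Ccbe1, which acts in growth of lymphatic vessels, was at -1.06 ± 0.22 (adjusted p = 0.0445), a call kept only without rat 301 (adjusted p up to 0.187). Matn2, a matrilin of the extracellular matrix, was the 1 gene higher with sand, by 0.47 ± 0.10 (adjusted p = 0.0383), a call kept only without rat 305 or 502 (adjusted p up to 0.161). Without rat 302 the higher genes were instead the semaphorin Sema4d, at 0.41 (adjusted p = 0.0157), and Adam22, a catalytically inactive ADAM protein, at 0.36 (adjusted p = 0.0167). Next in p on that side with all rats was Zfpm1, a cofactor of GATA factors, at 0.68 ± 0.15 (adjusted p = 0.0503). With all rats Sema4d stood at 0.62 ± 0.13 (adjusted p = 0.0503) and Adam22 at 0.32 ± 0.07 (adjusted p = 0.0621). Among the fits that left out 1 of the 8 rats, Adam22 passed only in that without rat 302, and Sema4d in each that left out a sand rat but none that left out a silica rat (adjusted p up to 0.204 and 0.175).

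For 10 of the 38 genes no role is given here. Cped1 was at 7.96, 7.42, 8.0 and 7.81 in the sand rats and 8.72, 9.20, 9.07 and 8.90 in the silica rats, without overlap. It was lower by 1.18 ± 0.13 (adjusted p = 7.61e-05), or by 1.05 without rat 302 (adjusted p = 1.53e-04), and with RNA integrity entered as a covariate over the 19 arrays with a known number, Cped1 and Ccnd2 were the only genes to pass (adjusted p = 0.0183 and 0.00534), against 10 genes on the same arrays without the covariate. C11h21orf91 was lower by 1.37 ± 0.18 (adjusted p = 8.41e-04) and Veph1 by 1.28 ± 0.21 (adjusted p = 0.00562), or by 1.20 and 1.17 without rat 302. LOC100912031 was lower by 1.47 ± 0.27 (adjusted p = 0.0140), or by 1.11 without rat 302, a call lost on removing rat 503 or 504 (adjusted p up to 0.0761). Efcab14 was lower by 0.56 ± 0.08 (adjusted p = 0.00103), or by 0.51 without rat 302. C10h17orf75 was lower by 0.79 ± 0.15 (adjusted p = 0.0234), a call kept only without rat 304, 305 or 503 (adjusted p up to 0.0923 otherwise).

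The promoters of genes that were lower together were read from RefSeq, assembly GRCr8, from 250 bases before to 50 bases after the start of each gene. Of the 38 genes 32 had an entry. The E-box CACGTG, on either strand, was present in 5 of the 32 (15.6%), those of C11h21orf91, Med13l, Gsk3b, Pdcd6ip and Bhlhe40, against 6.65% of 27457 promoters. The cyclic AMP element TGACGTCA was in 2 (6.25%, against 1.91%), the forkhead motif GTAAACA in 2 (6.25%, against 3.76%) and the AP-1 motif TGANTCA in 1 (3.12%, against 7.33%). The median GC content was 59.3% in the 32 and 52.3% in all, and the median number of CG pairs was 20.5 and 7.0. The E-box and the cyclic AMP element each hold a CG pair, and the 27457 promoters were not limited to genes on the array. The part of either in these shares was not tested. A match is a description of letters only, and no test was made. Shown are a promoter with an E-box, one with the cyclic AMP element and that of Cped1, which has none of the 4 motifs, for Bhlhe40 at chr4:143174200-143174499, Ubn2 at chr4:68133011-68133310 and Cped1 at chr4:51482247-51482546, all on the plus strand of GRCr8, with the motif in capitals.
Bhlhe40: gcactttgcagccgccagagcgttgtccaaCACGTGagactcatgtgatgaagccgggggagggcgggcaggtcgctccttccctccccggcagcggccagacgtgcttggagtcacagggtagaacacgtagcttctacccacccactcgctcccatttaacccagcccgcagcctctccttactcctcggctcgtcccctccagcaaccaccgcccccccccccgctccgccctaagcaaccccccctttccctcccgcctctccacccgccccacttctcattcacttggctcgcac
Ubn2: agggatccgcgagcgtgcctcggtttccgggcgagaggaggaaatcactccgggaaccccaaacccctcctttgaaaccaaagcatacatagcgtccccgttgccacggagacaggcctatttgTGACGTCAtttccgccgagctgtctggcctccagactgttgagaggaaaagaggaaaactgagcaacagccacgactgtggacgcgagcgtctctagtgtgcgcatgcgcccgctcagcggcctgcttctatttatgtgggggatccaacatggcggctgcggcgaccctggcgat
Cped1: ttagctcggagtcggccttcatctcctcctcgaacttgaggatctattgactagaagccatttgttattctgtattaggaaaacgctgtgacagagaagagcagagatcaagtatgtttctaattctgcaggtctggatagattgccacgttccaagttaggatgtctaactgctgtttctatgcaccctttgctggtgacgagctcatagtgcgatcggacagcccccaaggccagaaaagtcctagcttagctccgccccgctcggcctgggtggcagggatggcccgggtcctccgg

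Filtered air lay between sand and silica for most of the 38 genes. The air mean was between the other means in 34 genes and below the sand mean in 4, and the median of the 38 was -0.34 for sand minus air and 0.46 for silica minus air. Both comparisons share the air rats, and each has a particle group in common with the choice of the 38, so these medians are a description. Over all genes, silica against air called 20 genes (0.141%), all higher, with 711 at an unadjusted p under 0.05, and 42 (0.295%, 38 higher and 4 lower, with 1409 at an unadjusted p under 0.05) without rat 302, a sand rat whose spread the model shares. It called 9, 8, 8 and 10 without rat 104, 105, 501 or 503. Sand against air called 4 (0.0281%), with 1456 at an unadjusted p under 0.05, and 4 without rat 302, but 30 without rat 301, 2 without rat 305, 1 without rat 102 or 103 and 0 without rat 104 or 304. Higher with silica than in air were Bhlhe40 and Ccnd2, as above, the transcriptional regulator Arid5b by 0.56 ± 0.08 (adjusted p = 0.00670) and C10h17orf75 by 0.98 ± 0.15 (adjusted p = 0.00715), and these 4 calls were kept on leaving out each rat of both groups in turn. Arid5b stood at 7.35, 7.28, 7.59 and 7.26 with sand, near its air mean of 7.33, and at 7.85, 7.82, 7.84 and 8.07 with silica. Klf13 rose by 0.98 ± 0.19 (adjusted p = 0.0252), Nfix by 0.78 ± 0.14 (adjusted p = 0.0161) and Cped1 by 0.76 ± 0.13 (adjusted p = 0.0126), calls lost on removing rat 104, 105, 502 or 503, for Nfix also 504 and for Klf13 also 102, 501 or 504 (adjusted p up to 0.143, 0.0871 and 0.0708). The 1 gene of the 38 that fell with sand against air was C11h21orf91, by 1.08 ± 0.18 (adjusted p = 0.0297), a call lost on removing any of rats 102, 103, 104, 302, 304 and 305 (adjusted p up to 0.122).

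Rats that also breathed smoke gave no gene past the threshold between sand and silica (0% of 14217, with 989 at an unadjusted p under 0.05 in limma, or 1889 without rat 302), or 1 without rat 404 or 605. Of the 38 genes 24 were lower with sand under smoke (63.2%, against 49.6% of all genes), their median difference was -0.01, and the lowest adjusted p among them was 0.533. The mean level of the 38 genes ran from 7.50 to 7.85 over the sand rats without smoke, from 8.47 to 8.62 over the silica rats and from 7.92 to 8.18 over the air rats. Under smoke it ran from 8.23 to 8.49 with sand and from 8.37 to 8.56 with silica, which overlap, and from 7.93 to 8.06 with smoke alone. The 38 genes were chosen by the gap between the sand and silica rats without smoke. That gap is therefore set by the choice, a gap so chosen tends to be smaller in other rats, and these ranges are a description.

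**Figure D3:**
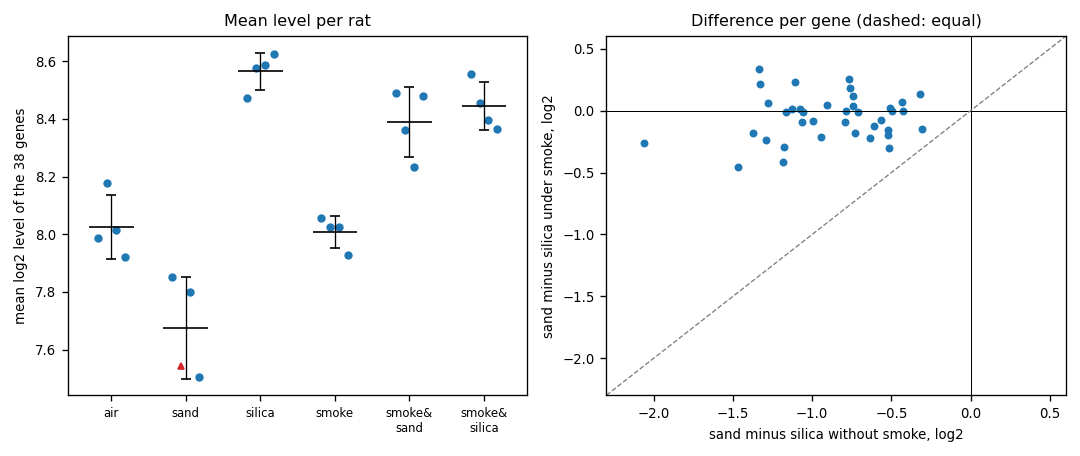
Left, the mean log2 level of the 38 genes in each of the 24 rats, with group means and SD over 4 rats (red triangle, rat 302). Right, log2 sand minus silica without smoke against the same difference under smoke, 1 point per gene. The genes were chosen on the horizontal axis, where all lie below 0, and on the vertical axis they lie between -0.45 and 0.33.

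Whether the difference itself changed with smoke was tested gene by gene. Ccnd2 was the 1 gene of 14217 (0.00703%) to pass, with 1005 at an unadjusted p under 0.05. Its difference without smoke was below that under smoke by 1.80 ± 0.27 on the log2 scale (adjusted p = 0.0176), and under smoke it stood at 9.67, 10.70, 10.10 and 10.09 with sand and 10.56, 10.47, 10.32 and 10.26 with silica, groups that overlap. This call was lost on removing any of rats 501, 503, 504, 604 and 605 (adjusted p up to 0.0693), and the count was 8 without rat 301, 9 without rat 405 and 2 without rat 304 or 404. Without rat 302, 4 genes passed (0.0281%), Ccnd2 at -1.90 (adjusted p = 0.00680), Klf13 at -1.74 (adjusted p = 0.00494), Atxn2, an RNA-binding protein, at -0.46 (adjusted p = 0.0327) and Mtmr9 at -0.84 (adjusted p = 0.0327). With all rats Klf13 was at -1.54, Atxn2 at -0.46, Rora at -1.67 and F13a1 at -0.95 (adjusted p = 0.0522, 0.0522, 0.0656 and 0.0703).

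A gene's value here is that of 1 probe set, which reads 1 stretch of a transcript, and other probe sets of the same genes did not always share it. Of the 38 genes 18 had further probe sets, 24 in all, of which 19 were below 0 and 3 passed (those of C11h21orf91, F13a1 and LOC100912031), while 14 lay within 0.2 of 0. That of F13a1 did not pass without rat 302 (adjusted p = 0.0289 with it and 0.0991 without). The dimmer probe set of Rora was at 0.00 ± 0.11 and those of Foxo1 at -0.03 and -0.04. Those of Pdcd6ip were at -0.13 and -0.06, or 0.07 and 0.01 without rat 302. For Ubn2, Nfix and Med13l the dimmer probe set was at 0.05, -0.15 and -0.20. That of Ro60 was at -1.06, and those of Nipbl were at -0.14, -1.50 and 0.07. Tested together, 60 of the 14217 brightest probe sets passed (0.422%) and 94 of the 6609 others (1.42%), 85 of them lower with sand, and without rat 302 the counts were 46 (0.324%) and 87 (1.32%). Over both kinds the share was 0.739%. Of 10216 probe sets with no symbol or several, tested apart, 235 passed (2.30%), 213 of them lower with sand, and 242 (2.37%) without rat 302. These counts and the genes of the next paragraph were chosen after their values were seen.

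In both fits 74 dimmer probe sets of 63 genes passed, 71 of them lower with sand, with a median of -0.84, and the brightest probe sets of those genes had a median of -0.17 and passed in 2 genes. Cirbp, the cold-inducible RNA-binding protein, was at 5.28, 5.64, 5.51 and 5.34 in the sand rats and 7.49, 7.91, 7.60 and 7.78 in the silica rats on its dimmer probe set. The rats were far apart there, by -2.25 ± 0.28 (adjusted p = 1.24e-04), and by -0.17 ± 0.14 on the brightest. Dhx36, a helicase that opens G-quadruplexes, was at -2.29 ± 0.26 (adjusted p = 4.12e-05) and at -0.91 ± 0.52 on the brightest. Egfr, the receptor of epidermal growth factor, was at 6.85, 6.84, 6.79 and 6.80 with sand and 7.84, 8.04, 8.22 and 8.14 with silica on the dimmer probe set. It differed by -1.24 ± 0.14 there (adjusted p = 4.12e-05) and by -0.02 ± 0.18 on the brightest. The kinase subunit Csnk2a1 was at -1.78 ± 0.26 (adjusted p = 5.55e-04) and -0.23 ± 0.08. Under smoke 46 of the 74 were lower with sand and their median was -0.05. Of all genes, read from the brightest probe set, 49.6% were lower there. The 74 were chosen by the gap without smoke, and a gap so chosen tends to be smaller in other rats. The interaction with smoke was tested in limma over all probe sets with 1 symbol, brightest and dimmer. Of all these, and not of the 74 alone, 19 passed, or 25 without rat 302. Among them were the dimmer probe sets of Dhx36 (adjusted p = 0.00852) and Egfr (adjusted p = 0.0130). That of Csnk2a1 passed only without rat 302 (adjusted p = 0.0540 with it and 0.00800 without), and that of Cirbp in neither fit (adjusted p = 0.271 and 0.211). Which transcript form each probe set reads was not examined here, and the cause was not tested.

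**Figure D4:**
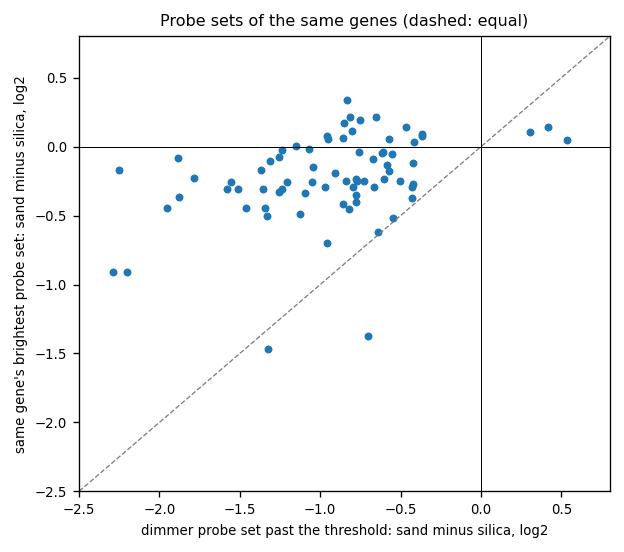
Log2 sand minus silica without smoke of the 74 dimmer probe sets that passed in both fits (horizontal) against the brightest probe set of the same gene (vertical). The points were chosen on the horizontal axis, and the brightest probe set lies within 0.3 of 0 for 43 of the 63 genes.

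In the lists of genes of the inflammatory response to particles none passed between sand and silica in limma, and with 0.274% of all genes called, lists of their size would hold few calls, so nothing is read from this. In all, 43 lists with 811 measured genes were followed, chosen with earlier results known, and 41 of them held no gene past the threshold in limma with or without rat 302. In the list of RNA processing and chromatin, Arid5b and Nipbl passed of 45 genes, and only Arid5b without rat 302. At an unadjusted p under 0.05 lay 7 of the 45, or 6 without rat 302, where 11.9% of all genes did with that rat. That list had 40 genes below 0 with rat 302 and a median of -0.30, and 14 below 0 and a median of 0.06 without it. The mean of its genes was 8.95 in rat 302 and between 9.99 and 10.12 in its group mates.

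Cxcl1, a neutrophil-attracting chemokine, was at 8.83, 8.61, 9.68 and 9.31 in the sand rats and 10.79, 10.04, 9.98 and 9.99 in the silica rats, with air rats between 8.21 and 8.66. All silica rats were above all sand rats, which all but rat 302 were above the air rats. The difference was -1.09 ± 0.26 (95% interval -1.64 to -0.54), or -0.92 without rat 302, and did not pass (adjusted p = 0.101 and 0.297). Of the 8 genes of that list 3 were above 0, with a median of -0.12, or 2 and -0.09 without rat 302. The macrophage chemokine Ccl3 was at -0.42 ± 0.16 (adjusted p = 0.337) and Ccl2 at 0.11 ± 0.60. Interleukin-1 beta, Il1b, was at 0.21 ± 0.36 and the 14 genes of its list had a median of 0.01, or 0.05 without rat 302. Of 26 genes of alveolar macrophages 0 passed in limma and 3 lay at an unadjusted p under 0.05, or 1 without rat 302. Of all 14217 genes 1698 (11.9%) lay there, or 1000 without rat 302. The macrophage list had a median of -0.02, or -0.04, with the lysosomal Cd68 at -0.14 ± 0.19 and Gpnmb at -0.20 ± 0.19. Heme oxygenase Hmox1 was at 0.33 ± 0.23 and the metallothionein Mt2A at 0.07 ± 0.26. The 31 genes of collagen and fibrosis had a median of 0.11, or 0.05 without rat 302, where all genes had 0.05 and 0.01. Col1a1 was at 0.27 ± 0.40. Lcn2, a secreted iron-binding protein of inflammation, varied widely among rats, at 11.2 ± 1.9 with sand and 12.1 ± 2.0 with silica (SD, n = 4), so a difference of -0.87 ± 1.20 was within the spread.

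Markers of other cells were followed too. All 9 genes of the mesothelium, the cell layer that covers the lung, were higher with sand, with a median of 0.44 (8 of 9 and 0.59 without rat 302). Of all genes 63.0% were higher (55.8% without rat 302). In limma 0 of the 9 passed, and 5 lay at an unadjusted p under 0.05 with or without rat 302. Of all genes 11.9% lay there with rat 302, and 1000 of 14217 without it. Bnc1, basonuclin, was at 6.26, 6.30, 6.43 and 6.10 in the sand rats and 5.12, 5.52, 5.72 and 5.71 in the silica rats. The sand rats were above the silica rats and above the air rats, which lay between 5.12 and 5.68. The difference was 0.76 ± 0.17 (adjusted p = 0.0523), or 0.75 without rat 302 (adjusted p = 0.129). The mesothelial factor Wt1 was at 0.57 ± 0.18 and mesothelin, Msln, at 0.82 ± 0.29 (adjusted p = 0.261 and 0.297). The mean level of the 9 genes ran from 9.38 to 9.49 in the sand rats, from 8.76 to 9.26 in the silica rats and from 8.63 to 9.39 in the air rats, and its part in the other results was not tested. The endothelial nitric oxide synthase Nos3 was at 7.60, 7.15, 6.73 and 6.83 with sand and 5.66, 6.09, 5.74 and 6.48 with silica. These groups were apart by 1.08 ± 0.27 (limma adjusted p = 0.115). The 26 endothelial markers had a median of 0.07, or 0.02 without rat 302. The 28 heart and striated muscle genes had a median of 0.36, or -0.17 without rat 302, and 0 passed in limma either way or at an unadjusted p under 0.05. Of 32 T and NK cell markers 0 passed in limma, 3 lay at an unadjusted p under 0.05, where 11.9% of all genes did, and the median was 0.18, or 0.02 without rat 302.

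**Figure D5:**
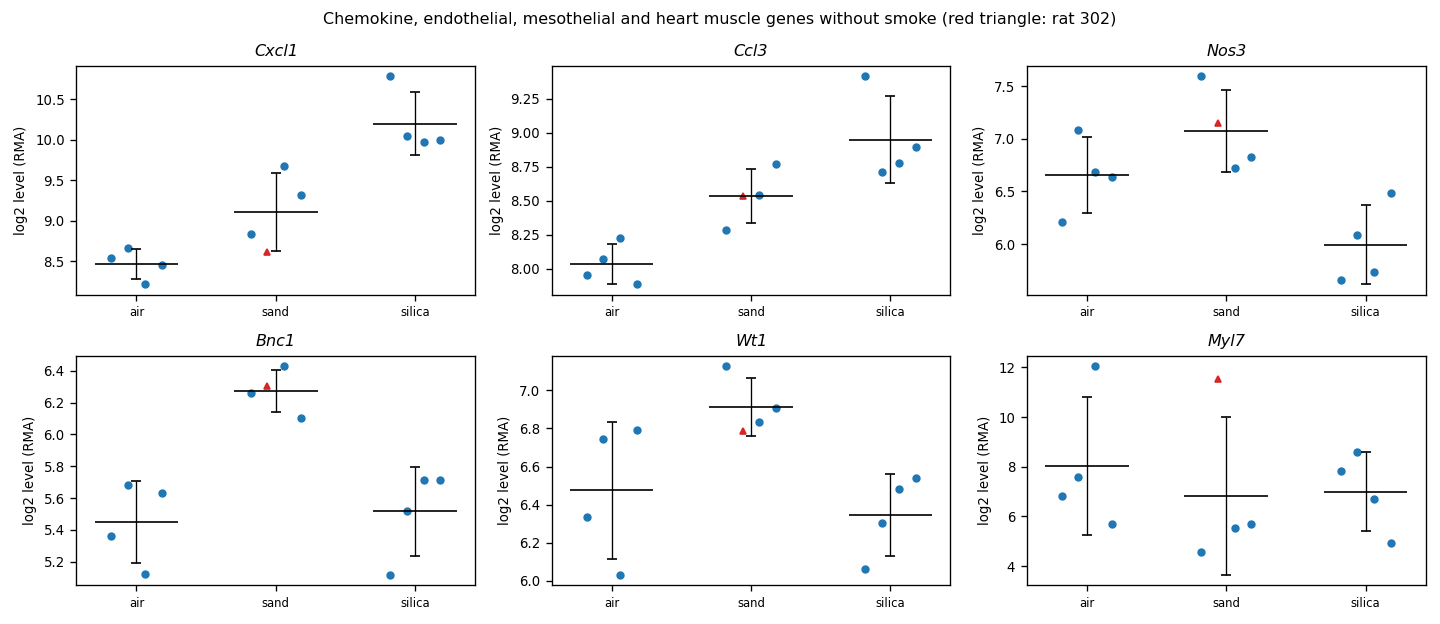
Log2 level of the chemokines Cxcl1 and Ccl3, the endothelial Nos3, the mesothelial Bnc1 and Wt1 and the heart muscle Myl7 in the 4 air, 4 sand and 4 silica rats without smoke, with group means and SD; the red triangle is rat 302. None of the 6 passed the threshold between sand and silica. Myl7 is high in rat 302, at 11.51, and in 1 air rat. Over the other 7 sand and silica rats it runs from 4.56 to 8.58.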

How the data were processed

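Lung RNA of 24 rats, 4 in each of 6 groups, was measured on 1 Affymetrix rat array per rat. The deposited values are log2 expression values per probe set, made with RMA per the submitters' processing notes, in a version not given in the sources used here. Its quantile step gives every array the same distribution of probe signals, though not of the deposited values per probe set. That step would hide a general shift, and small signals show compressed changes. Array medians lay between 7.26 and 7.32, and precision is limited by how few arrays there are. Of 31042 probe sets that are no controls, 20826 had exactly 1 symbol in the platform annotation, 436 several and 9780 none. Each of 14217 genes was read from its brightest probe set. A linear model of 6 group means was fitted to the 24 arrays with limma 3.58.1 in R 4.3.3 (18 residual degrees of freedom), with two-sided tests, Benjamini-Hochberg adjustment within each comparison and a threshold of 0.05, and again on the 23 arrays without rat 302. Differences are log2 with their standard errors, and the script was tested on simulated data. Rats are separate animals, so p-values refer to the spread between them. No batch or date was in the labels.

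Named genes were the 15 largest differences in each direction past the threshold without overlap of the groups, in either fit, up to 5 with the smallest p in a direction with fewer calls, up to 4 members of each list, a fixed set of genes and the 5 with the smallest p for the interaction. Others are said to be chosen after their values were seen. The comparison, the lists and this rule were chosen with earlier results of these data known. Alternatives were other shrinkage, a filter on dim genes, the mean of probe sets, a fold minimum of 1.5, only the arrays compared, array weights, centring, quantile normalization over again, RNA integrity as a covariate, and rats left out. Promoters are from RefSeq, assembly GRCr8. Scanner files were not used here.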

Additional observations from a re-analysis of the deposited data

Results flagged for a closer look

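In 5 of 88 groups of 4 rats checked over the called genes, 1 rat lay far from the other 3, where chance alone sets about 1 group in 20 apart. In Ccnd2 silica rat 502 was at 10.65 and the others at 11.00 ± 0.0028 (SD, n = 3). In Arid5b silica rat 504 was at 8.07 (others 7.83 ± 0.02), in Chmp4b, chosen after its values were seen, the same rat was at 5.92 (others 6.05 ± 0.01), and in Adam22 silica rat 501 was at 6.50 (others 6.69 ± 0.01). In Sema4d sand rat 302 was at 6.20 and the others at 5.36 ± 0.06, and without it the difference went from 0.62 to 0.41 and passed the threshold.

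The difference between sand and silica was itself different with and without smoke in limma's test of the interaction for 4 genes, in 1 fit or both. Each was read from its brightest probe set, and dimmer probe sets of other genes that passed are given above. Sand minus silica without smoke less the same under smoke was -1.80 for Ccnd2, -1.54 for Klf13, -0.46 for Atxn2 and -0.70 for Mtmr9 on the log2 scale with all 24 arrays. Only Ccnd2 passed with all arrays (adjusted p = 0.0176), and the other 3 passed without rat 302.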

How the results depend on the processing

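Between sand and silica without smoke, 39 genes passed. The count was 82 with array weights (57 lower, 25 higher), 19 among genes at or above the median level, 6 on the arrays compared alone, 2 with RNA integrity as a covariate and 10 on the same 19 arrays without it, 25 without rats 302 and 304, and 17 without rats 302 and 305 (the last 3 settings were chosen after seeing the data). It ran from 25 to 54 over single rats left out and, in every other setting, from 26 to 52. All 38 lower genes stayed lower in every setting run. The interaction, with 1 gene, gave 12 with array weights, 4 with the mean of probe sets, 2 with the filter on dim genes or quantile normalization over again, 0 on the arrays compared alone or with RNA integrity, 5 without rats 302, 104 and 604, and 0 to 9 over single rats. Under smoke the count of 0 became 11 with array weights and 1 on the arrays compared alone or after quantile normalization over again, and 0 to 1 over single rats. Sand against air, with 4, gave 201 with array weights, 0 on the arrays compared alone or with RNA integrity and 0 to 30 over single rats. Silica against air, with 20, gave 80, 2 and 0 in those settings, 31 without the 3 rats and 8 to 42 over single rats. None of the 39 called genes changed direction in the settings run. Fewer arrays leave fewer degrees of freedom, and neither the part of this nor any other cause of these shifts was tested. No paired analysis was possible because the groups share no animal numbers.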
